A study of Mus musculus with 4 samples.

Results

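The genes Ctgf, Cyr61, Nov, Wisp1, Wisp2, Ankrd1 and Amotl2 make up the CCN family measured in mouse sciatic nerve together with 2 intracellular genes that are widely read, like Ctgf and Cyr61, as outputs of the transcriptional coactivators YAP and TAZ. They were taken by row name from the deposited count tables, 7 of the 22716 genes listed in any library. All 7 had a row in the injured and in both neonatal libraries, and 6 had a row in the uninjured library, where Ankrd1 was not listed. The CCN symbols in the tables are older names: RefSeq lists Cyr61 as Ccn1, Ctgf as Ccn2, Nov as Ccn3, Wisp1 as Ccn4 and Wisp2 as Ccn5.

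CCN proteins are secreted into the extracellular matrix, where they bind integrins, proteoglycans and low-density lipoprotein receptor-related proteins and modulate the growth factors held there. Ctgf (connective tissue growth factor) is best known from fibroblasts and scar tissue, and Cyr61 both as a target of YAP and as an immediate-early gene that serum or mechanical stress induces within minutes. YAP and TAZ enter the nucleus when the Hippo kinases are inactive and act there through TEAD transcription factors. Ankrd1 encodes a nuclear and sarcomeric ankyrin repeat protein, and Amotl2 an angiomotin that binds YAP at cell junctions. In peripheral nerve YAP and TAZ are known for their requirement in Schwann cells during myelination.

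Drop-seq, a droplet method in which single cells are lysed beside a barcoded bead that captures polyadenylated RNA, was performed on wildtype CD1 mouse nerves dissociated with collagenase and trypsin. The 4 libraries were from adult distal sciatic nerve 3 d after resection (3 DPI), from uninjured adult nerve, from neonatal nerve at P2-P3 (neonatal beads), and from neonatal nerve at P3-P4 (neonatal sorted). Cells of the first 3 were cleared of myelin with magnetic removal beads, and those of the last were sorted by FACS as Hoechst-high, propidium iodide-negative cells. Each condition was thus 1 library, so no test between conditions was possible, and the number of mice behind a library was not given in the labels. The neonatal preparations differed in isolation and in age, and the effects of these cannot be told apart.

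Libraries held 4513814 to 8123103 UMIs, and 1837 to 5420 cells of each were kept, 11610 in all, with medians of 994 to 1791 UMIs per cell. Only 3 kept barcodes occurred in more than 1 library. Clusters were formed without the 7 genes or any gene of the lists below, and were named from marker genes as endothelial-like, vascular smooth muscle (VSM)/pericyte-like, Schwann-like, immune-like, and, among Pdgfra-expressing mesenchymal cells, endoneurial-like, epineurial-like and perineurial-like. All of the markers of its class were detected in each class, except Gfra3 in the 3 DPI Schwann-like cells and 1 of the 6 epineurial markers in the neonatal bead library, where detected means at least 1 UMI. Perineurial-like cells had 4 of 6 markers in at least 5% of cells in the neonatal bead library and 3 of 6 in the sorted library, against 6 of 6 in uninjured nerve. Endoneurial-like cells had 5 of 5 at this limit at 3 DPI and 4 of 5 in each other library. Epineurial-like cells had 4 of 6 in the neonatal bead and 5 of 6 in the sorted library, and Schwann-like cells 6 of 7 in each library. Clusters were named from these markers, so their detection is not a separate check of the names. At 3 DPI, 477 mesenchymal cells matched none of the 3 mesenchymal classes and are called other mesenchymal, and no cluster was perineurial-like. A level is the UMIs of a gene over all UMIs of a class, as CPM (counts scaled to a total of 1e6), and is given with its 95% exact Poisson interval in brackets. Intervals of levels, shares and ratios cover counting error only, not the spread between animals. Each UMI is a tag from the 3′ end of an mRNA, so levels were compared between classes and libraries and not between genes.

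Promoter windows from RefSeq (build GRCm38.p6) were at hand for 3 of the 7 genes, Cyr61, Ankrd1 and Amotl2. They are shown because TEAD factors are the DNA-binding partners of YAP and TAZ, and each spans the 250 bases before the transcription start, read 5′ to 3′ on the strand of the gene. Capitals mark the TEAD hexamer GGAATG or its reverse complement CATTCC. The Cyr61 window is chr3:145649986-145650235 on the minus strand, that of Ankrd1 is chr19:36119845-36120094 on the minus strand, and that of Amotl2 is chr9:102717554-102717803 on the plus strand.
Cyr61: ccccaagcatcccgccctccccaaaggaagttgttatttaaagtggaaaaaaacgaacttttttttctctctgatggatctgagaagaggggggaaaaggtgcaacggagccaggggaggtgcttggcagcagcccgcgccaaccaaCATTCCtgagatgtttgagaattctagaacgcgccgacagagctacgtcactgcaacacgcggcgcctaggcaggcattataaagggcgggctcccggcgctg
Ankrd1: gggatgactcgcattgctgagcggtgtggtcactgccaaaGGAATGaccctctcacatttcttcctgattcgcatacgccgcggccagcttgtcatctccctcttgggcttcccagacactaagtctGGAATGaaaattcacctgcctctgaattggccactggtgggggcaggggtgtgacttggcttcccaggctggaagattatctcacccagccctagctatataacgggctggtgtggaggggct
Amotl2: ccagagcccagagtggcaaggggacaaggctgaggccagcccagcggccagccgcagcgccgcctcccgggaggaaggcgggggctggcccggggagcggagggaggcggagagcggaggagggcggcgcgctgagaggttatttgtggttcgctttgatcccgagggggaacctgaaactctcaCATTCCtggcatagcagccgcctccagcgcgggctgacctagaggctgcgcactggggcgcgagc

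The hexamer occurred once in the Cyr61 window, 103 to 98 bases before the start on the opposite strand, and once in that of Amotl2, 65 to 60 bases before the start on the opposite strand. Ankrd1 held it 2 times on the strand of the gene, at 210 to 205 and at 123 to 118 bases before the start. Of 32851 promoter windows of the same length, 12.6% held the hexamer on either strand. None of the 3 windows held the AP-1 motif TGANTCA (6.75% of all windows), the CRE motif TGACGTCA (1.55%) or a CArG box (1.47%), which says only that these letters are not in these windows. Ctgf, Nov, Wisp1 and Wisp2 had no window.

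In the GENCODE annotation of the same build Ctgf lies on chromosome 10 at 24595442 to 24598683 on the plus strand, where the antisense noncoding gene Gm15270 overlaps it. Whether counting used the strand of the reads was not given in the sources used here. Cyr61 lies on chromosome 3 at 145646976 to 145649981, Wisp2 on chromosome 2 at 163820861 to 163833146, and Nov and Wisp1 on chromosome 15 at 54745702 to 54754039 and 66891320 to 66923201. Ankrd1 lies on chromosome 19 at 36111961 to 36120099 on the minus strand and Amotl2 on chromosome 9 at 102716672 to 102733418 on the plus strand. The RefSeq starts used for the windows differ from these gene starts, so that the Ankrd1 and Amotl2 windows lie inside the GENCODE genes, and that of Cyr61 lies outside. Each of the 5 CCN genes has 5 exons in its first annotated transcript, and Ankrd1 and Amotl2 have 9 and 10.

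**Figure D1:**
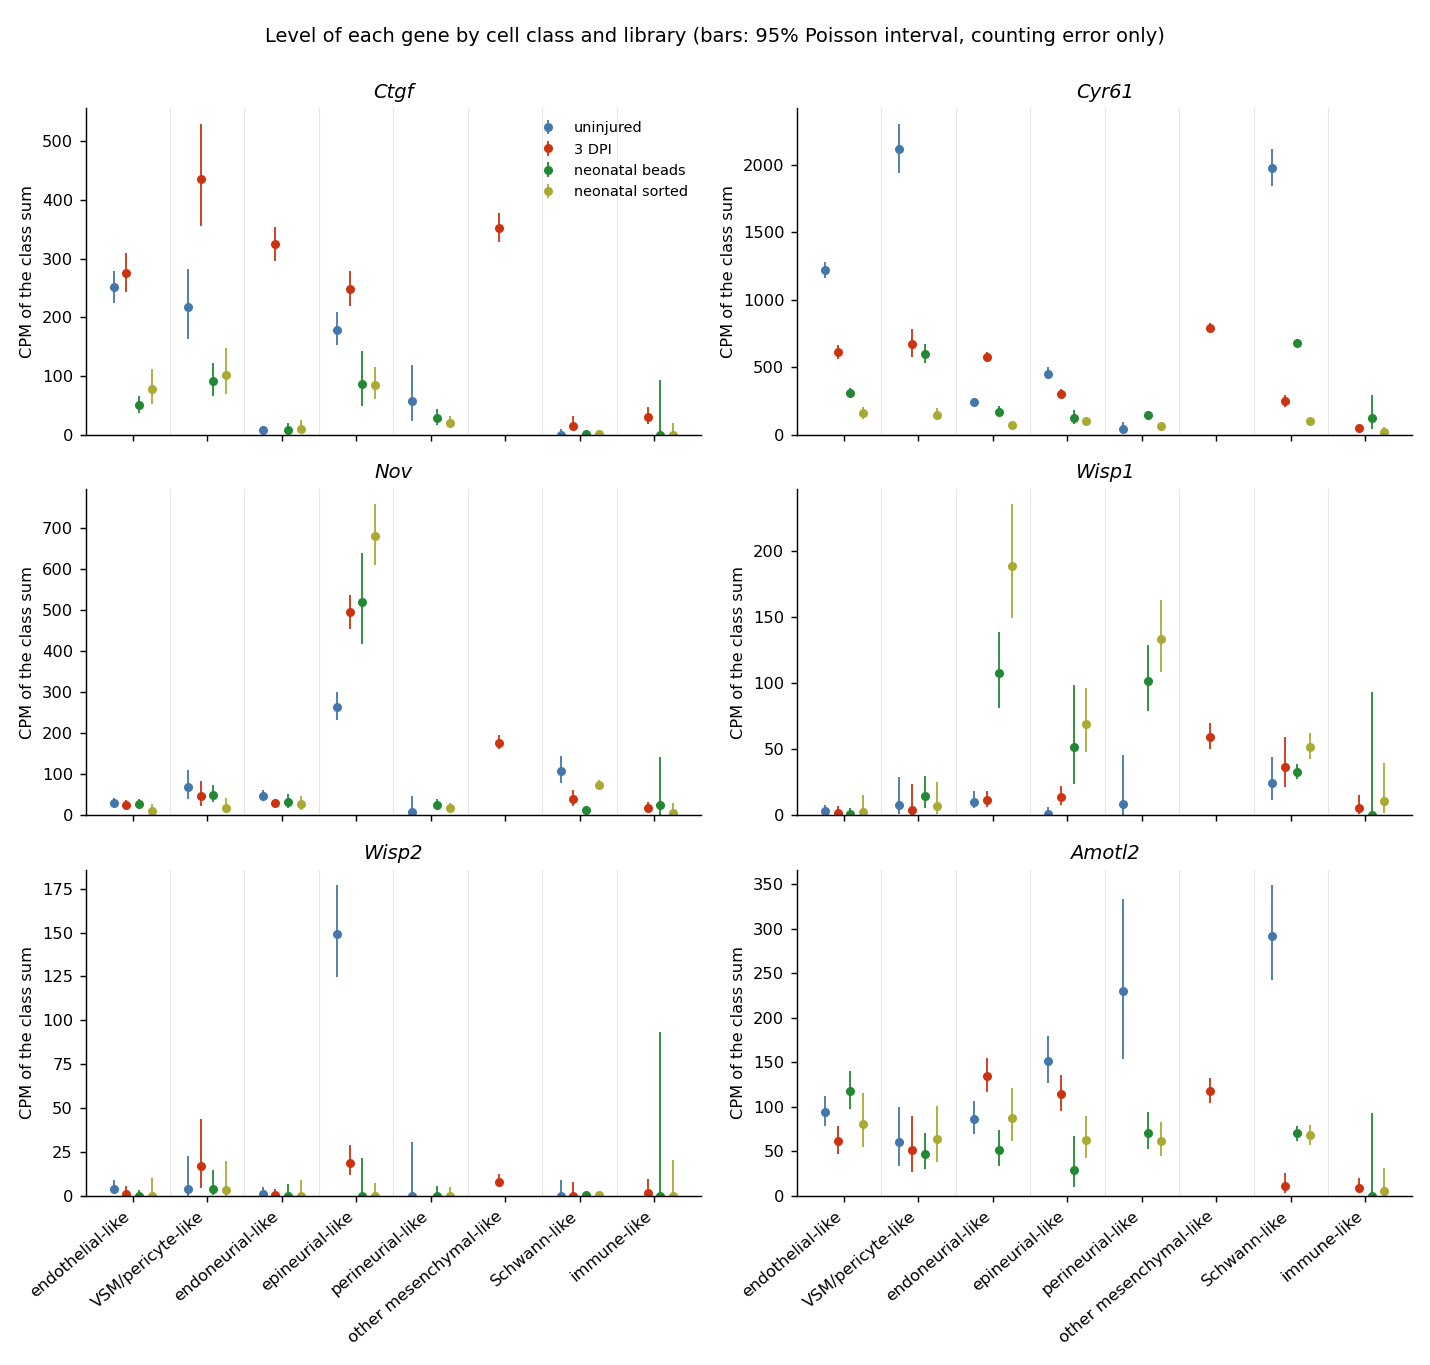
Level of each gene with at least 50 UMIs over all class sums, in CPM, in each cell class of the 4 libraries, with 95% exact Poisson intervals. Ctgf stands near 8 CPM in endoneurial-like cells of uninjured nerve and at 324 CPM in those of the 3 DPI nerve, Nov is highest in epineurial-like cells in each library, and Wisp2 is seen almost only in epineurial-like cells of uninjured nerve.

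Ctgf gave the largest ratio of the 7 genes between uninjured and injured adult nerve, and it did so in endoneurial-like cells, the mesenchymal cells that lie among the axons. There, 8 UMIs in 417 uninjured cells gave 7.53 CPM (3.25 to 14.8), and 489 UMIs in 277 cells at 3 DPI gave 324 CPM (296 to 354), a ratio of 43.1 (interval 21.7 to 100.3) that was 28.8 where classes were set from each cell's own markers. The same class held 7.54 CPM (2.05 to 19.3) in the neonatal bead library and 9.68 CPM (2.64 to 24.8) in the neonatal sorted library. Endoneurial-like cells were therefore close to empty of Ctgf in 3 libraries and were among the higher classes in the fourth. In cells with a UMI of Ctgf at 3 DPI the median was 2 UMIs, and the tenth of cells with most UMIs (28 cells) held 64.8% of the class total.

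The share of endoneurial-like cells with a Ctgf UMI was 1.68% in uninjured nerve and 40.8% at 3 DPI. Injured cells were deeper, with a median of 4107 UMIs against 2175, and after each cell was thinned to 500 UMIs the shares were 0.973% and 14.4%. Immune-like cells at 3 DPI (median 926 UMIs) had a Ctgf UMI in 3.39% of cells, or 0.501% after thinning, at 29.7 CPM (17.3 to 47.6). They were taken as a guide to free RNA, and whether free RNA was equal over the classes was not tested. In their sums, markers of the vascular classes, which also hold Ctgf, were low in endoneurial-like cells of both adult libraries. The summed level of the 7 endothelial markers was 137 CPM in uninjured and 123 CPM in injured endoneurial-like cells, against 8962 and 7005 CPM in endothelial-like cells of the same libraries, and that of the 7 VSM/pericyte markers was 168 and 93.1 CPM. No endothelial or VSM/pericyte marker was at 0 in these sums. Endothelial markers with a UMI in at least 5% of endoneurial-like cells were 3 of 7 in uninjured nerve and 6 of 7 at 3 DPI. For VSM/pericyte markers these were 2 of 7 and 4 of 7, in cells not thinned to equal depth. Other mesenchymal and epineurial-like cells held 41.7% and 13.8% of the Ctgf UMIs at 3 DPI, and vascular markers do not follow RNA from them. The part of RNA from other cells in the endoneurial-like level was not tested.

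In the vascular classes and in the epineurium Ctgf was already present without injury. Endothelial-like cells held 251 CPM (225 to 280) in uninjured nerve and 275 CPM (244 to 309) at 3 DPI, a ratio of 1.09 (0.93 to 1.29). VSM/pericyte-like cells held 217 CPM (163 to 283) and 437 CPM (356 to 530), a ratio of 2.01 (1.43 to 2.85) that was 1.90 with TMM factors and 1.77 as a mean of per-cell CPM. Epineurial-like cells held 179 CPM (152 to 209) and 248 CPM (220 to 279), a ratio of 1.39 (1.14 to 1.70). These 3 class ratios set sums of differing clusters against each other, as given in the next paragraphs, and the part of that make-up in the ratios was not tested.

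Uninjured endothelial-like cells formed 3 clusters that differed in Ctgf. The cluster led by Slco1a4 and Mfsd2a, transporters of barrier capillaries, held 434 CPM, that led by Selp and Sele, selectins of venules, held 193 CPM, and that led by Gpihbp1 and Rbp7 held 95.1 CPM. Among uninjured mural cells the cluster led by Kcnj8, Rgs5 and Abcc9, which mark pericytes, held 367 CPM and that led by Pln and Myh11, of contractile smooth muscle, held 128 CPM. The mural class at 3 DPI was a single cluster of 82 cells led by Rgs5, Myh11 and Acta2, so its level was set against a mixture of both. Likewise the injured endothelial-like class was 1 cluster, set against 3.

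Mesenchymal clusters of the injured nerve also differed among themselves. The cluster led by C1qtnf3, Dlk1 and Lrrc15 held 514.5 CPM of Ctgf and the epineurial-like cluster led by Inmt and Comp held 451 CPM, whereas the epineurial-like cluster led by Cxcl13, Pi16 and Dpp4 held 65.0 CPM. Dividing mesenchymal cells, led by Top2a, held 212 CPM. In uninjured nerve the epineurial-like cluster led by Gdf10 and Comp held 202 CPM and that led by Krtdap and Pi16 held 86.7 CPM, so that in both adult libraries the Pi16 cluster was the lower. The Comp clusters, 288 of 377 epineurial-like cells in uninjured nerve and 172 of 432 at 3 DPI, had intervals that did not overlap, whereas those of the Pi16 clusters did.

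Schwann-like cells held almost no Ctgf. None of 357 uninjured Schwann-like cells (median 984 UMIs) had a UMI, which allows up to 0.840% of cells with a UMI and sets no limit on cells that express the gene, and 7 of 141 cells at 3 DPI had 1 UMI each, at 15.1 CPM (6.09 to 31.2), a level not above that of the immune-like cells. Of the neonatal Schwann-like cells, 1 of 3658 in the bead library and 2 of 1219 in the sorted library had a UMI. Perineurial-like cells held 57.6 CPM (23.2 to 119) in uninjured nerve and 28.1 and 19.3 CPM in the neonatal libraries.

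Neonatal nerve held less Ctgf than adult nerve in the classes that had most of it. Endothelial-like cells held 50.1 CPM (37.4 to 65.6) with beads and 78.3 CPM (52.5 to 113) after sorting, VSM/pericyte-like cells 90.5 and 102 CPM, and epineurial-like cells 86.6 and 85.3 CPM. Against the neonatal bead library the 3 DPI levels were 5.49-fold higher in endothelial-like cells (4.07 to 7.53), 4.82-fold in VSM/pericyte-like cells (3.35 to 7.03) and 2.87-fold in epineurial-like cells (1.71 to 5.19). Over all kept cells Ctgf was at 275 CPM at 3 DPI, 138 CPM in uninjured nerve, and 19.5 and 25.8 CPM in the neonatal bead and sorted libraries. Neonatal libraries were mostly Schwann-like cells (67.5% and 55.6% of cells), which held almost no Ctgf. The part of this make-up in the totals was not tested.

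Cyr61, with 452 to 3985 UMIs per library, stood higher in 1 class of injured nerve and lower in others than in uninjured nerve. In endoneurial-like cells it was at 238 CPM (210 to 269) in uninjured nerve and at 572 CPM (535 to 612) at 3 DPI, 2.40-fold higher (2.09 to 2.78). In Schwann-like cells it was at 1976 CPM (1843 to 2116) in uninjured nerve and at 247 CPM (203 to 296) at 3 DPI, 8.01-fold lower. VSM/pericyte-like cells held 2113 CPM in uninjured nerve and 672 CPM (571 to 786) at 3 DPI, 3.15-fold lower. The endoneurial-like class, second lowest in uninjured nerve, was at 3 DPI level with the vascular classes, and the Schwann-like class went from near the top to near the bottom.

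Endothelial-like cells held 1217 CPM of Cyr61 in uninjured nerve and 610 CPM (563 to 660) at 3 DPI, 1.99-fold lower, and epineurial-like cells 452 CPM (408 to 499) and 302 CPM (271 to 336), 1.5-fold lower. With classes set from each cell's own markers the epineurial direction turned, to 0.75. Of all ratios between the adult libraries, those nearest to the 2-fold limit used for counts were this endothelial ratio, just outside, and the Ctgf ratio of 2.01 in VSM/pericyte-like cells, just inside. Other mesenchymal cells of the injured nerve held 788 CPM (753 to 824), the highest class level of that library. Within uninjured nerve the pericyte cluster led by Kcnj8 held 3036 CPM and the contractile cluster 1567 CPM.

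Uninjured Schwann-like cells could be divided into a non-myelinating or immature cluster, at 2387 CPM (2219 to 2565) of Cyr61, and a myelinating cluster, at 730 CPM (574 to 915). Against either, the 3 DPI Schwann-like cells were lower, 9.68-fold and 2.96-fold. Shares of cells told the same order: 46.8% of uninjured and 31.2% of injured Schwann-like cells had a Cyr61 UMI, although injured cells were deeper (median 1966 against 984 UMIs), and after thinning to 500 UMIs these were 37.0% and 14.2%. Immune-like cells at 3 DPI had a Cyr61 UMI in 5.51% of cells (2.01% after thinning) at 47.2 CPM. In uninjured nerve the perineurial-like cells, at 41.2 CPM (13.4 to 96.1) and 6.25% of cells, had the lowest Cyr61 share.

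Neonatal Schwann-like cells held 680 CPM (655 to 706) of Cyr61 in the bead library and 104 CPM (90.7 to 118) in the sorted library, 6.55-fold lower after sorting. VSM/pericyte-like cells held 595 and 148 CPM, endothelial-like cells 311 and 157 CPM, endoneurial-like cells 170 and 70.2 CPM, and perineurial-like cells 142 and 60.5 CPM. Epineurial-like cells were the exception, at 121 CPM (75.1 to 185) and 99.5 CPM (73.6 to 132). Cyr61 was thus lower in the sorted than in the bead preparation in 5 of 6 classes beyond counting error.

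Because Cyr61 is itself an immediate-early gene, a list of 15 immediate-early and heat shock genes (Fos, Jun, Egr1, Atf3, Hspa1a and others) that respond to enzymatic dissociation was summed in every class. In uninjured nerve the sum was 54185 CPM in Schwann-like, 46494 in endoneurial-like, 38962 in VSM/pericyte-like, 31771 in endothelial-like and 11433 CPM in epineurial-like cells. At 3 DPI it was 8232, 10891, 7961, 11499 and 5647 CPM in the same order. The list was lower at 3 DPI in each of the 5 classes, and Cyr61 was lower beside it in 4 of them and higher in endoneurial-like cells. In the neonatal libraries the sum was 8769 CPM in Schwann-like cells with beads and 2088 CPM after sorting, and ranged over classes from 2259 to 16063 and from 707 to 3694 CPM. The part of the immediate-early response in the Cyr61 levels was not tested.

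Over the 27 class sums of at least 30 cells, the Pearson correlation on a log2(CPM + 10) scale between a gene and the summed list was 0.67 for Cyr61, 0.08 for Ctgf, 0.14 for Amotl2, -0.06 for Nov and -0.48 for Wisp1. Class sums share libraries and dissociation, and these values are a description only.

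Counts of genes past 2-fold put these differences beside those of all genes. A gene was counted where it had at least 20 UMIs over both sums, and the share of all counted genes past the same limit is given as a background. Among endoneurial-like cells 5 of the 7 genes were counted, 2 were higher at 3 DPI (Ctgf and Cyr61) against 17.5% of 9589 genes, and 0 lower against 8.48%. In Schwann-like cells 4 were counted, 3 were lower (Amotl2, Cyr61 and Nov) against 13.9% of 6979 genes, and 0 higher against 18.8%. Of the 4 counted in VSM/pericyte-like cells Ctgf was higher, against 13.5% of 4393 genes, and Cyr61 lower, against 10.8%. Epineurial-like cells had 5 counted, 0 higher against 8.37% of 8958 genes, and 1 lower, Wisp2, against 3.08%. In endothelial-like cells none of 4 was higher, against 7.35% of 9681 genes, or lower, against 6.37%.

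The median log2 ratio of the counted members was 0.64 in endoneurial-like cells beside 0.23 over all genes there, and -2.24 in Schwann-like cells beside 0.13. It was -0.42 beside 0.02 in endothelial-like cells, -0.38 beside 0.09 in VSM/pericyte-like cells and -0.41 beside 0.13 in epineurial-like cells. With 1 library per condition none of these counts carries a replicate check. Wisp2 was counted in 1 class and Ankrd1 in none.

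**Figure D2:**
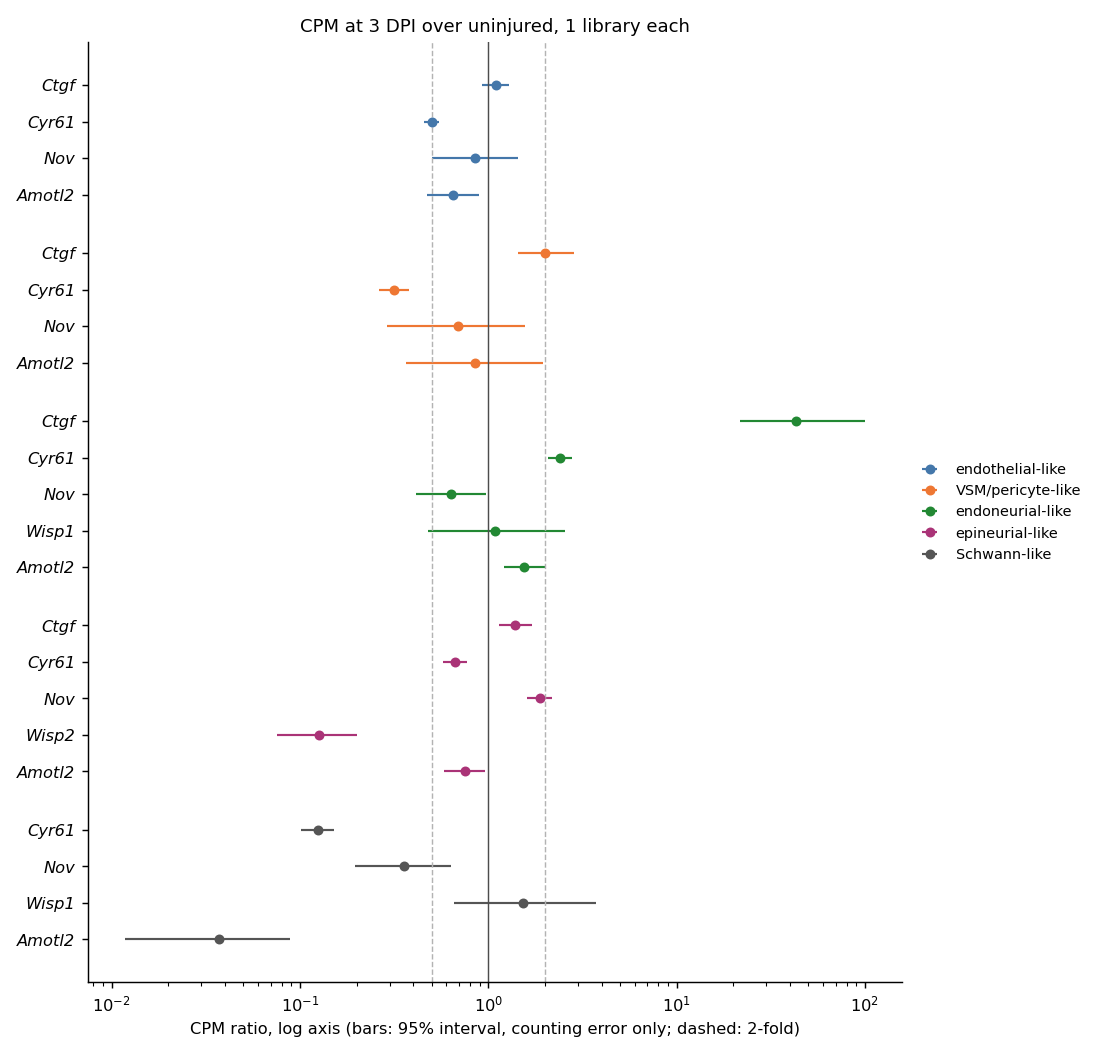
Ratio of the CPM at 3 DPI to that in uninjured nerve for each gene and class with enough UMIs, on a log axis, with 95% intervals for counting error and lines at 2-fold in either direction. Ctgf in endoneurial-like cells lies highest at 43.1 and Amotl2 in Schwann-like cells lowest, 27-fold down.

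Nov, which encodes CCN3, had its highest level in epineurial-like cells. Epineurial-like cells held 264 CPM (231 to 300) in uninjured nerve, 494 CPM (454 to 537) at 3 DPI, 520 CPM (418 to 639) in the neonatal bead library and 680 CPM (609 to 757) in the neonatal sorted library. This class stood above every other class in all 4 libraries beyond counting error, and it held 60.2% of the Nov UMIs of the uninjured library (20.5% of its cells) and 51.0% of those at 3 DPI. In the neonatal bead and sorted libraries it held 39.0% and 63.3% (3.06% and 12.1% of cells). Other mesenchymal cells held 38.8% of the Nov UMIs at 3 DPI, and Schwann-like cells 23.4% and 30.4% in the neonatal bead and sorted libraries. The injured level was 1.87-fold the uninjured level (1.60 to 2.19), and the neonatal bead level was 1.97-fold (1.53 to 2.53). Injured and neonatal nerve thus all lay above uninjured nerve, with intervals apart.

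Within the injured epineurium the Inmt and Comp cluster held 605 CPM of Nov and the Pi16 and Dpp4 cluster 393 CPM, and among other mesenchymal cells the C1qtnf3 and Dlk1 cluster held 216 CPM and the dividing cluster 142 CPM. The 2 uninjured epineurial-like clusters were closer, at 275 and 220 CPM. Endoneurial-like cells held little Nov, 46.1 CPM (34.1 to 61.0) in uninjured nerve and 29.2 CPM (21.2 to 39.2) at 3 DPI, where immune-like cells held 17.5 CPM (8.38 to 32.1), and this 1.58-fold difference turned, to 0.78, with classes set from each cell's own markers.

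A smaller Nov level was found in Schwann-like cells, and there the myelinating cells held more of it. The class was the lowest of the neonatal bead library, at 13.6 CPM, and in uninjured nerve its interval overlapped that of VSM/pericyte-like cells. Uninjured Schwann-like cells held 109 CPM (79.2 to 145), with 185 CPM (111 to 289) in the myelinating cluster and 83.4 CPM (54.5 to 122) in the non-myelinating or immature one, whose intervals overlap. In the neonatal bead library the myelinating cluster held 170 CPM (68.5 to 351) and non-myelinating or immature cells 15 CPM (10.4 to 20.9), and in the sorted library these were 135 CPM (111 to 163) and 28.5 CPM (19.5 to 40.2). In both neonatal preparations the myelinating cells were the higher beyond counting error. Dividing Schwann-like cells of the sorted library held 86.7 CPM, but 1 cell carried 14 of the 18 UMIs.

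Schwann-like cells at 3 DPI held 38.9 CPM (23.1 to 61.5) of Nov, 2.79-fold below the uninjured class (1.76-fold with classes from each cell's own markers), 2.14-fold below its non-myelinating part and 4.75-fold below its myelinating part. Between the neonatal preparations the whole Schwann-like class differed 5.45-fold, with 13.6 CPM in the bead library and 74.0 CPM in the sorted library. The sorted library held 445 myelinating cells among 1219 Schwann-like cells, and the bead library 33 among 3658. Within the non-myelinating or immature cells alone the levels were 15 and 28.5 CPM, a smaller difference than over the whole class. The part of cell make-up in the Nov difference between the preparations was not tested.

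Wisp1, or CCN4, was highest in endoneurial-like and perineurial-like cells of the neonatal nerve. Endoneurial-like cells held 107 CPM (81.4 to 139) in the neonatal bead library and 189 CPM (149 to 236) in the sorted library, against 10.4 CPM (5.17 to 18.5) in uninjured adult nerve and 11.3 CPM (6.57 to 18.0) at 3 DPI. The adult ratio of 1.09 was 4.08 with classes from each cell's own markers. The neonatal bead level was 10.4-fold that of uninjured nerve (5.39 to 22.0) and 9.53-fold that of the injured nerve. Perineurial-like cells held 102 CPM (79.3 to 129) and 133 CPM (108 to 163) in the neonatal libraries and 1 UMI in the uninjured one, a ratio of 12.4 with an interval of 2.15 to 496, and the neonatal cells of this class rest on the fewer markers given above. Uninjured adult nerve was therefore low in both classes where both neonatal libraries were high.

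At 3 DPI endoneurial-like cells held 17 of the library's Wisp1 UMIs, no cluster was perineurial-like, and most UMIs lay in other mesenchymal cells. Other mesenchymal cells at 3 DPI held 59.4 CPM (50 to 70.1) and 71.9% of the library's 196 Wisp1 UMIs, with 75.3 CPM in the C1qtnf3 and Dlk1 cluster and 45.6 CPM in the dividing cluster. Epineurial-like cells had 1 Wisp1 UMI in uninjured nerve and 15 at 3 DPI, 14 of them in the Inmt and Comp cluster (26.4 CPM), a ratio of 11.7 with an interval of 1.80 to 494. Schwann-like cells held 24.1 CPM (11.6 to 44.4) in uninjured nerve, 36.8 CPM (21.4 to 58.9) at 3 DPI, 32.4 CPM (27 to 38.5) in the neonatal bead and 51.9 CPM (42.8 to 62.4) in the neonatal sorted library. Only the neonatal pair had intervals apart, with a ratio of 1.60 (1.23 to 2.08). Endothelial-like cells had 1 to 4 UMIs in each library, at most 3.01 CPM.

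Wisp2 (CCN5), a CCN protein that lacks the C-terminal domain of its relatives, was found mainly in the uninjured epineurium. Epineurial-like cells held 130 of the 137 UMIs of the uninjured library (94.9%), at 149 CPM (125 to 177), and 129 of these lay in the cluster led by Gdf10, Cxcl14 and Comp, at 184.5 CPM. At 3 DPI the class held 21 UMIs and 18.8 CPM (11.7 to 28.8), 7.92-fold lower, with 20 UMIs in the Inmt and Comp cluster at 37.7 CPM. Other mesenchymal cells of that library held a further 19 UMIs at 8.01 CPM. The share of epineurial-like cells with a UMI was 15.4% in uninjured and 2.55% in injured nerve, at similar depth (medians of 1958 and 2074 UMIs), and 5.36% and 0.976% after thinning to 500 UMIs.

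The make-up of the epineurial-like class differed between the adult libraries, with 288 of 377 cells in the Gdf10 and Comp cluster in uninjured nerve and 172 of 432 in the Inmt and Comp cluster at 3 DPI. Between these 2 clusters, which share Inmt, Comp, Mfap4, Cilp, Sfrp4 and Gdf10 among their leading genes, Wisp2 was at 184.5 and 37.7 CPM. Wisp2 was itself among the 10 leading genes of the uninjured cluster, although it was not used to form it. In neonatal nerve Wisp2 was all but undetected, with 3 UMIs in 5420 cells and 2 UMIs in 2191 cells, and 0 UMIs in 166 and 266 epineurial-like cells. At their depth (medians of 849.5 and 1275.5 UMIs) this allows up to 1.81% and 1.13% of cells with a UMI, from a limit of 3 counts, and does not limit the share of cells that express the gene. The neonatal bead level in epineurial-like cells was 8.60-fold lower than in uninjured nerve with the 0 UMIs of that library set to 3. The lower limit of the interval was 6.90-fold.

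Ankrd1 gave too few UMIs to describe by class. Kept cells had 8 UMIs at 3 DPI, 1 in each neonatal library and none in uninjured nerve. Of the 8, 4 were in dividing mesenchymal cells, 3 in VSM/pericyte-like cells and 1 in epineurial-like cells. No fold is given, since both sides were at or near the floor of 3 UMIs.

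Amotl2 was broadly present, and its largest difference between the adult libraries was in Schwann cells. Schwann-like cells held 292 CPM (242 to 349) in uninjured nerve, level with perineurial-like cells as the highest of that library, and 5 UMIs or 10.8 CPM (3.51 to 25.2) at 3 DPI, 27-fold lower (11.3 to 84.6, and 13.6-fold with classes from each cell's own markers). The uninjured level was 350 CPM (287 to 422) in non-myelinating or immature and 117 CPM (60.3 to 204) in myelinating cells, 32.3-fold and 10.8-fold (3.54 to 39.1) above the injured class. The injured Schwann-like level could not be told from that of immune-like cells of the same library, at 8.74 CPM (2.84 to 20.4). Neonatal Schwann-like cells held 70.1 CPM (62.1 to 78.8) with beads and 68.0 CPM (57.5 to 79.9) after sorting, the same within counting error.

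Shares of Schwann-like cells with an Amotl2 UMI were 22.4% in uninjured and 3.55% in injured nerve, or 9.38% and 0.787% after thinning to 500 UMIs. The 6 mesenchymal markers summed to 6165 CPM in uninjured and 5822 CPM in injured Schwann-like cells, the endothelial markers to 208 and 97.4 CPM, and the VSM/pericyte markers to 152 and 102 CPM with Kcnj8 at 0 in both. Of the Schwann markers themselves, the sum was 29649 CPM in uninjured and 3905 CPM in injured cells, with Gfra3 at 0 in the latter. In injured Schwann-like cells the mesenchymal sum was thus above the Schwann sum, which was at most 102 CPM in the other classes at 3 DPI. The part of RNA from other cells in the gene levels of this class was not tested.

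Elsewhere Amotl2 differed less. Endoneurial-like cells held 86.6 CPM (69.8 to 106) in uninjured nerve, 135 CPM (117 to 154) at 3 DPI, 50.9 CPM (33.5 to 74.0) in the neonatal bead library and 87.1 CPM (61.0 to 121) in the sorted library. The injured level was 1.55-fold the uninjured (1.21 to 2.01) and 2.65-fold the neonatal bead level (1.77 to 4.11). Epineurial-like cells held 151 and 114 CPM in uninjured and injured nerve, and 28.9 and 62.9 CPM in the neonatal libraries. Perineurial-like cells held 230 CPM (153 to 333) in uninjured nerve and 70.9 and 61.9 CPM in neonatal nerve, and no cluster at 3 DPI was perineurial-like. Endothelial-like cells held 94.0 CPM in uninjured nerve, 61.3 CPM at 3 DPI, and 117 and 81.0 CPM in the neonatal bead and sorted libraries. VSM/pericyte-like cells held 60.3, 51.4, 47.3 and 63.5 CPM in the same order. The class with the uninjured level highest was thus not every class.

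**Figure D3:**
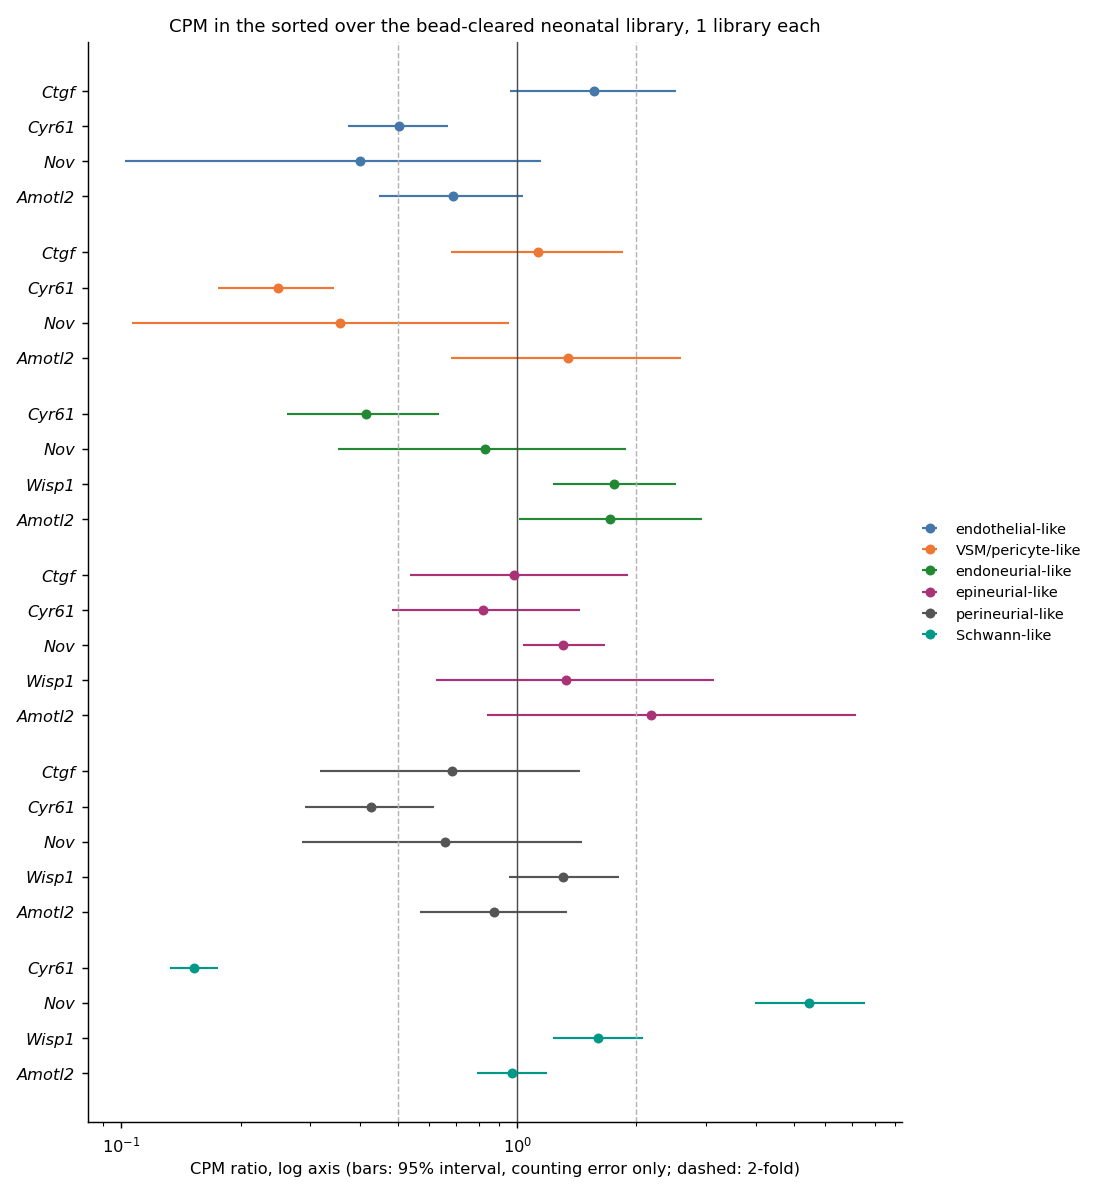
Ratio of the CPM in the neonatal sorted to that in the neonatal bead library for each gene and class with enough UMIs, on a log axis, with 95% intervals for counting error. Cyr61 lies below 1 in every class, by 6.55-fold in Schwann-like cells and within counting error in epineurial-like cells, while Amotl2 in Schwann-like cells stands at 0.97 and Nov in Schwann-like cells at 5.45.

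The genes of the pathway itself were read from a list of 21 Hippo components. In endoneurial-like cells 19 were counted, of which 4 were at least 2-fold higher at 3 DPI (Tead2, Tead1, Yap1 and Sav1), beside 17.5% of all genes, and 1 lower (Vgll4), beside 8.48%, with a median log2 ratio of 0.45 beside 0.23 over all genes. Yap1 was at 25.4 CPM in uninjured and 69.6 CPM in injured endoneurial-like cells (2.74-fold, 1.78 to 4.35), and Tead1, a DNA-binding partner, at 20.7 and 91.5 CPM (4.42-fold, 2.81 to 7.28). Wwtr1, which encodes TAZ, was at 54.6 and 85.5 CPM, and Frmd6, a FERM-domain protein upstream of the kinases, at 235 and 169 CPM. In Schwann-like cells 17 were counted, 1 higher (Mob1b), beside 18.8% of all genes, and 6 lower (Vgll3, Frmd6, Wwc2, Vgll4, Lats2 and Stk3), beside 13.9%, with a median of -0.21 beside 0.13 over all genes. There Tead1 was at 256 and 383 CPM, Wwtr1 at 113 and 147 CPM, and Vgll3, another TEAD cofactor, at 299 and 69.2 CPM.

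A list of 18 further YAP and TAZ targets, without the members, had a median log2 ratio above that of all genes in each of the 5 classes, with genes past 2-fold on both sides in some. The list was chosen, like the others here, with earlier results of these data known. It had 9 (VSM/pericyte-like) to 15 (endoneurial-like) genes counted in a class, and no test was made of its medians. Its medians were 0.69 in Schwann-like, 0.45 in endoneurial-like, 0.32 in epineurial-like, 0.68 in VSM/pericyte-like and 0.17 in endothelial-like cells, beside 0.13, 0.23, 0.13, 0.09 and 0.02 over all genes. In endoneurial-like cells 15 were counted, 4 higher (Igfbp3, Myof, Ptpn14 and Nt5e), beside 17.5% of all genes, and 1 lower (Gadd45a), beside 8.48%. Nt5e, an ectonucleotidase, was at 104 and 212 CPM, Axl, a receptor tyrosine kinase, at 118 and 197 CPM, Myof, a membrane repair protein, at 23.5 and 154 CPM, and F3, or tissue factor, at 167 and 131 CPM. Schwann-like cells had 13 counted, 5 higher (Myof, Ccdc80, Igfbp3, Axl and Gadd45a), beside 18.8% of all genes, and 4 lower (F3, Rbms3, Lats2 and Arhgef17), beside 13.9%. Ccdc80, a matrix protein, was at 21.7 CPM in uninjured and 664 CPM in injured Schwann-like cells and Igfbp3, an IGF-binding protein, at 16.9 and 502 CPM, both also abundant in mesenchymal cells of the injured nerve (589 and 648 CPM in other mesenchymal cells). In Schwann-like cells the other targets thus stood on both sides, while Cyr61 and Amotl2 were both lower.

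In the remaining classes the shares of all genes past 2-fold were 7.35% higher and 6.37% lower (endothelial-like), 13.5% and 10.8% (VSM/pericyte-like) and 8.37% and 3.08% (epineurial-like). Of the targets 14 were counted in endothelial-like cells, 1 higher (Fjx1) and 1 lower (Tgfb2), 9 in VSM/pericyte-like cells, 1 higher (Myof) and 0 lower, and 14 in epineurial-like cells, 1 higher (Rbms3) and 0 lower. Of the Hippo list 18, 11 and 18 were counted, with 0, 1 (Mob1a) and 2 (Tead2 and Tead1) higher and 2 (Nf2 and Frmd6), 0 and 0 lower.

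CCN proteins act through receptors, and a list of 11 receptor genes was followed, made of integrin subunits with Lrp1, Lrp6 and Sdc4. In endoneurial-like cells 9 were counted, 5 were higher at 3 DPI (Itgb3, Itga5, Itgam, Itgav and Lrp6), beside 17.5% of all genes, and 0 lower, beside 8.48%, with a median log2 ratio of 1.39 beside 0.23 over all genes. Itgav and Itgb3, the subunits of the vitronectin receptor that binds Ctgf and Cyr61, were at 69.6 and 28.2 CPM in uninjured and at 213 and 227 CPM in injured endoneurial-like cells (3.06-fold and 8.06-fold). Itgb1, the common beta subunit, at 556 and 745 CPM, Lrp1 at 399 and 661 CPM and Itga6 at 11.3 and 9.95 CPM were within 2-fold.

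In Schwann-like cells 7 receptor genes were counted, 0 higher, beside 18.8% of all genes, and 2 lower, beside 13.9%, Itga6 at 630 CPM in uninjured and 244 CPM in injured nerve and Sdc4 at 1134 and 495 CPM. Endothelial-like cells had 10 counted, 4 higher (Itgam, Itgb3, Itgav and Lrp1), beside 7.35% of all genes, and 0 lower. VSM/pericyte-like cells had 5, 1 higher (Itgb5), beside 13.5%, and 0 lower, and epineurial-like cells 10, 2 higher (Itgam and Itgb3), beside 8.37%, and 0 lower. Itgam is otherwise a myeloid integrin, at 675 CPM in immune-like cells of the injured nerve. The 7 immune markers summed to 98.1 CPM in the injured and 70.6 CPM in the uninjured endoneurial-like cells, with Laptm5 at 0 in the latter, and their part in the Itgam level was not tested.

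Of the immediate-early list, all 15 genes were counted in each class, none was higher at 3 DPI, and 8 (epineurial-like cells) to 14 (Schwann-like and VSM/pericyte-like cells) were lower, with 12 lower in endoneurial-like and 13 in endothelial-like cells, where 3.08% to 13.9% of all genes were lower by class. Fos was at 10312 CPM in uninjured and 1688 CPM in injured endoneurial-like cells, and at 14611 and 1737 CPM in Schwann-like cells. Medians of the log2 ratios were -2.11 and -3.02 in these classes. Cyr61, higher in the first and lower in the second, followed the list in only the latter.

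Cyr61 was seen in a larger share of the cells with Ctgf than of those without. Among injured epineurial-like cells thinned to 1000 UMIs, 20 of 47 cells with Ctgf also had Cyr61 (42.6%, 28.3 to 57.8) against 53 of 299 cells without (17.7%, 13.6 to 22.5). In injured endoneurial-like cells these were 22 of 55 (40%, 27 to 54.1) and 36 of 164 (22.0%, 15.9 to 29.1), and in other mesenchymal cells 43 of 84 (51.2%, 40 to 62.3) and 101 of 287 (35.2%, 29.7 to 41.0). The exact binomial intervals were apart only in the epineurial-like cells. The epineurial-like and other mesenchymal classes each pool clusters that differed in Ctgf, as given above. The shares were not split by cluster, and the part of this pooling in them was not tested. Cyr61 and Amotl2 showed no such pairing in the same classes, with Amotl2 in 12.3% of the injured epineurial-like cells with Cyr61 and in 11.4% of those without. Cells of 1 library are not replicates, and no test was made.

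The genes whose pattern over the 27 class sums was most like that of each member, by Pearson correlation of log2(CPM + 10) among 10408 genes, were as follows. Ctgf was nearest to Lrrc32 (0.82), Hspb8 (0.80) and Gm7676 (0.80), and Cyr61 to Synm (0.81), Asap2 (0.76) and Egr1 (0.73). For Nov they were C1qtnf3 (0.87), Sfrp2 (0.86) and Cadm3 (0.86), and for Wisp1 Capn6 (0.91), Ttc3 (0.83) and Ssr2 (0.81). Wisp2 came closest to C7 (0.91), Cxcl13 (0.88) and Comp (0.82), and Amotl2 to Hook3 (0.78), Alg1 (0.75) and Pvrl3 (0.74). Among the members themselves the highest values were 0.47 for Ctgf with Wisp2, 0.44 for Ctgf with Cyr61 and 0.42 for Amotl2 with Cyr61 and for Nov with Wisp2. The nearest genes were picked from 10408 and the partners among the members from a few, so the sizes of these values cannot be compared.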

How the data were processed

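Drop-seq was measured in 4 libraries of mouse sciatic nerve, 1 for each group. The authors deposited UMI counts per gene and barcode, whole numbers that were not normalized, on build mm10 per the labels; the aligner version and annotation were not given in the sources used here. Barcodes with at least 200 genes, at most 10% mitochondrial and 5% hemoglobin UMIs were kept, and the 5% of each library with the highest scrublet score were removed as doublets (Python 3.11.15, scanpy 1.11.5). Cells were normalized with scran 1.30.0 and clustered with Seurat 5.3.0 on 2000 variable genes and 20 principal components at resolution 0.4, both neonatal libraries together and without the members and listed genes. Clusters were named from fixed markers; the score limits for naming were set after the clusters were seen, and classes rebuilt here need not be those of the study.

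UMIs were summed per class and library, and CPM, exact Poisson intervals, exact Clopper-Pearson intervals of shares and exact conditional intervals of CPM ratios were computed (scipy 1.17.1). A sum of 0 was set to 3 counts in a ratio, and no ratio was formed where both sums were at or below 3. With 1 library a condition, no p-value was computed. Thinning drew 500 or 1000 UMIs per cell without replacement, leaving out shallower cells. Counts past 2-fold needed 20 UMIs over both sums. The ratio script was tested on simulated counts. All 7 members are named; other lists are given by counts and by at most 6 genes with the highest levels, except that genes counted as past 2-fold are named where few, which was decided after their values were seen. Members and lists were chosen with earlier results of these data known. TMM factors came from edgeR 4.0.16.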

Additional observations from a re-analysis of the deposited data

Results flagged for a closer look

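Some genes were past 2-fold in opposite directions in different classes of the same comparison. None of these differences between classes was tested, since each condition was 1 library.

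Cyr61 at 3 DPI against uninjured nerve was 2.40-fold higher in endoneurial-like cells, 3.15-fold lower in VSM/pericyte-like cells and 8.01-fold lower in Schwann-like cells. Against the neonatal bead library it was at 3 DPI 3.37-fold higher in endoneurial-like and 2.49-fold higher in epineurial-like cells and 2.76-fold lower in Schwann-like cells. In the neonatal bead library against uninjured nerve it was 3.45-fold higher in perineurial-like cells, a ratio that rests on 5 UMIs in uninjured nerve, and lower by 3.91-fold in endothelial-like, 3.55-fold in VSM/pericyte-like, 3.72-fold in epineurial-like and 2.91-fold in Schwann-like cells.

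Amotl2 at 3 DPI against the neonatal bead library was 2.65-fold higher in endoneurial-like cells and 3.94-fold higher in epineurial-like cells, the latter against 5 UMIs, and 6.48-fold lower in Schwann-like cells. Nov in the neonatal sorted against the neonatal bead library was 5.45-fold higher in Schwann-like cells and 2.80-fold lower in VSM/pericyte-like cells, where the sorted library had 5 UMIs.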

How the results depend on the processing

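The 8 ratios past 2-fold between uninjured and injured nerve each stayed in direction under 8 alternatives (at least 500 genes, no doublet removal, at most 5% mitochondrial UMIs, resolution 0.8, library size normalization before clustering, classes from each cell's own markers, TMM factors, and the mean of per-cell CPM, the last chosen after seeing the data), all within the interval of the value reported. Ctgf in endoneurial-like cells ranged from 28.8 to 51.4, Amotl2 in Schwann-like cells from 13.6 to 39.5, Cyr61 in Schwann-like cells from 7.21 to 8.83 and in endoneurial-like cells from 2.12 to 2.42, and Wisp2 in epineurial-like cells from 6.23 to 10.2. Ctgf in VSM/pericyte-like cells, from 1.77 to 2.22, and Nov in Schwann-like cells, from 1.76 to 3.07, crossed the 2-fold limit. Of 110 counts of genes past the limit 93 were within 1.5 times, and 17 moved. Endothelial-like cells had 1 lower instead of 0 with no doublet removal, own markers, TMM, no minimum of UMIs and the per-cell mean. VSM/pericyte-like cells had 0 higher instead of 1 with at most 5% mitochondrial UMIs, TMM, the 3-fold limit and the per-cell mean, 2 higher with no minimum, and 2 lower instead of 1 with own markers. Endoneurial-like cells had 1 higher instead of 2 at 3-fold. Epineurial-like cells had 1 higher instead of 0 with no doublet removal, own markers and no minimum, and Schwann-like cells 1 higher instead of 0 with own markers and no minimum. The cause of these was not tested. Of smaller ratios, with own markers Wisp1 in endoneurial-like cells was 4.08-fold higher at 3 DPI in place of 1.09, and Cyr61 in epineurial-like cells and Nov in endoneurial-like cells changed sides of 1 (uninjured over injured 0.75 in place of 1.5, and 0.78 in place of 1.58). Nov in VSM/pericyte-like cells was 2.38-fold lower at 3 DPI in place of 1.45 under that setting. Shares of cells moved in 94 of 106 cases, since thinning lowers them. No paired analysis was possible because each group was 1 library. Low UMI numbers limit Ankrd1, Wisp1 and Wisp2 and the immune-like and perineurial-like cells of uninjured nerve.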

Other observations

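The remaining CCN gene, Wisp3, had 0 to 4 UMIs in the kept cells of each library and is not described by class. Over all deposited barcodes, before any filter, Ctgf had 2165 UMIs at 3 DPI and 633 in uninjured nerve, and 140 and 127 in the neonatal bead and sorted libraries.

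Cyr61 UMIs were spread unevenly over cells. In uninjured endothelial-like cells 1 cell held 115 UMIs, and the 42 cells with most UMIs held 63.5% of the total, whereas in uninjured VSM/pericyte-like cells the top 18 cells held 45.8%. In uninjured VSM/pericyte-like cells Ctgf was more concentrated, with 96.3% of UMIs in the top 18 of 182 cells.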
